A study of Mus musculus with 11 samples.

Results

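Axon guidance ligands and receptors were followed in cultured mouse hippocampal neurons exposed to low oxygen. The genes were taken by symbol from the deposited table: semaphorins of classes 3 to 7, plexins, Eph receptors and ephrins, Robo receptors and Slits, netrins 1 to 5, the netrin-G genes, and the Unc5 and Dcc receptors. Of 48709 gene IDs, 71 matched. Among these, 3 are noncoding transcripts from the strand opposite Plxna4 (Plxna4os1, Plxna4os2 and Plxna4os3), and Ntn3 was not analysed here. The hypoxia group was 5 libraries of primary hippocampal neurons held for 4 h at 1% oxygen. The control group was 6 libraries of such neurons, of the same isolation, held at 20% oxygen. Both groups had first spent 10 days in culture at 20% oxygen, and the labels name no genetic change or drug in either. As nothing says that the libraries of a group came from separate dishes or animals, p-values measure the spread between these libraries, which may be technical.

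Guidance cues steer growing axons and, later, shape dendrites and synapses. Semaphorins signal through plexins, often with neuropilins as co-receptors. Ephrins bind Eph receptor tyrosine kinases and can also signal back into the cell that carries them. Slits act on Robo receptors and repel many axons. Netrins attract axons through Dcc and repel them through Unc5 receptors. Unc5 and Dcc proteins are also called dependence receptors, since they can promote cell death when netrin is missing.

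Total counts per library ran from 22688096 to 31917157 in hypoxia and from 16619493 (control 1) to 31416241 in control. The first principal component of all genes tested, with 30.0% of the variance, separated the groups. The low-oxygen exposure was visible in 7 of 8 listed low-oxygen genes, whose summed level was 650 to 735 CPM (counts scaled to a library of 1000000) in hypoxia and 242 to 419 CPM in control. Excitatory neuron markers summed to 3070 to 3230 CPM in hypoxia and 2880 to 3150 CPM in control, with 2 of 8 higher. The cultures also held astrocyte transcripts, at 3340 to 3660 CPM in hypoxia and 3310 to 3660 CPM in control, with 1 of 9 lower. Interneuron markers summed to 711 to 828 CPM in hypoxia and 684 to 831 CPM in control (1 of 9 higher, 1 lower), and fibroblast markers to 236 to 434 CPM in hypoxia and 253 to 346 CPM in control (1 of 7 higher). Oligodendrocyte lineage markers were lower for 3 of 8 tested, with sums of 96.4 to 126 CPM in hypoxia and 114 to 160 CPM in control, and genes of dividing cells for 2 of 6, at 79.7 to 101 CPM in hypoxia and 89.3 to 118 CPM in control. Microglial markers were low, at 25.4 to 29.0 CPM in hypoxia and 24.6 to 28.6 CPM in control. Endothelial and mural markers were also low, at 29.4 to 36.2 CPM in hypoxia and 35.3 to 41.0 CPM in control. In either list, none of 7 tested passed the threshold. Most of the endothelial and mural level came from Kdr, at 20.5 CPM in hypoxia and 23.7 CPM in control. Cldn5, of the same list, had at most 4 counts in any library. The part of these cells in the results below was not tested. In such bulk samples, fewer cells of a type and less RNA per cell cannot be told apart.

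Of the 71 members, 63 had 10 or more counts in at least 5 libraries and were tested. The other 8 were at the floor of the measurement in both groups. Robo4, the Robo of blood vessel endothelium, and Sema3g, also known from vessels, each had at most 7 counts in any library. Ntn5 had at most 2 counts. Plxnb3 and Epha1 each had at most 11. Plxna4os1, Plxna4os2 and Plxna4os3 had at most 3, 11 and 1.

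The tested genes were well represented in these cultures. Their median level per exon length was 6.80 CPM per kb, beside 3.82 CPM per kb over the 16319 genes tested, and 21 members stood at 10 or more CPM per kb. A single gene dominated some families. Efnb3, a transmembrane ephrin, was the most abundant member of all, at 104 CPM per kb in hypoxia and 102 CPM per kb in control, and made up 69.6% of the ephrin total per length. Epha4, a receptor for both ephrin classes, stood at 60.7 CPM per kb in hypoxia and 55.1 CPM per kb in control, which was 47.6% of the Eph total. Among plexins the class A genes led: Plxna1, a receptor subunit for secreted semaphorins, stood at 43.2 CPM per kb in hypoxia and 43.3 CPM per kb in control. All 3 Slits were present, led by Slit1 at 26.5 CPM per kb in hypoxia and 25.9 CPM per kb in control. Netrin 1 itself was low, at 1.16 CPM per kb in hypoxia and 1.11 CPM per kb in control, whereas its receptors Dcc and Unc5a to Unc5d ran from 4.16 to 16.5 CPM per kb over both groups.

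**Figure D1:**
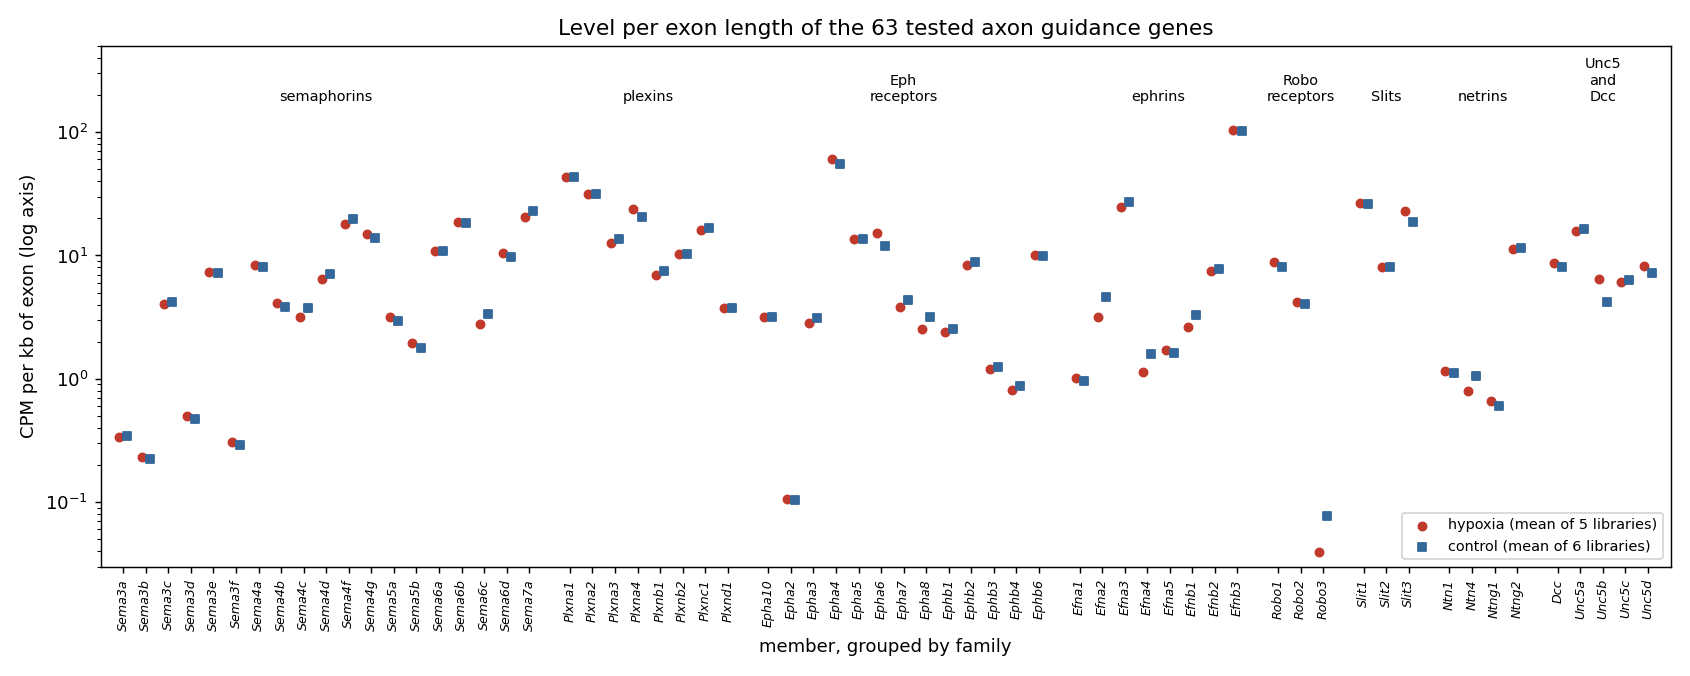
Mean level of each of the 63 tested members in CPM per kb of exon (log axis), with hypoxia as red circles (5 libraries) and control as blue squares (6 libraries), grouped by family. The 2 groups lie close together for most genes, and the members run from Efnb3, an ephrin, at 104 CPM per kb in hypoxia to Robo3, a Robo receptor, at 0.0392 CPM per kb in hypoxia.

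After 4 h of low oxygen, 16 members passed the threshold of an adjusted p under 0.05, with 8 up and 8 down in hypoxia, and 47 did not pass (edgeR quasi-likelihood test, Benjamini-Hochberg adjustment over all genes tested). That is 25.4% of the 63, beside 23.0% of all genes tested, so the share called was near the background. In each direction the background was 10.2% higher and 12.8% lower. The median log2 fold change was -0.003 over the members and -0.02 over all genes. Differences were small: in 56 members the higher group was less than 25% above the lower one, and in 7 it was 25% or more above, beside 15.6% of all genes. In 7 members every hypoxia library was above every control library, and in 1 every hypoxia library was below, beside 6.78% and 7.25% of all genes. Ligands were called for 8 of 34 (2 higher, 6 lower, median log2 fold change 0.02) and receptors for 8 of 29 (6 higher, 2 lower, median -0.02), and this difference between the roles was not tested. The count depended on single libraries: without control 1, 23 members were called (9 higher, 14 lower), 13 of them ligands, which is 36.5% of the members beside 24.8% of all genes tested in that setting (11.3% higher, 13.5% lower). The lower count was 5 without control 4, control 5, control 6, hypoxia 2 or hypoxia 4, and the ligand count was 4 or 5 without these or hypoxia 3. Lower calls over all genes fell too, from 2084 to 1771, 1776, 1875, 1646 and 1793 in that order, and to 1741 without hypoxia 3. By family, 4 semaphorins of 19, 1 plexin of 8, 3 Eph receptors of 13, 2 ephrins of 8, 2 Robo receptors of 3, 1 Slit of 3, 1 netrin of 4 and 2 of the 5 Unc5 and Dcc receptors were called. The lower and Robo counts include Robo3, which passed the count filter mainly through the control libraries, where it was higher. The authors' deposited table, made from the same libraries, listed 16 members, beside 3790 of the 16319 genes tested (23.2%). Of the listed members, 15 were among the 16 called here.

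**Figure D2:**
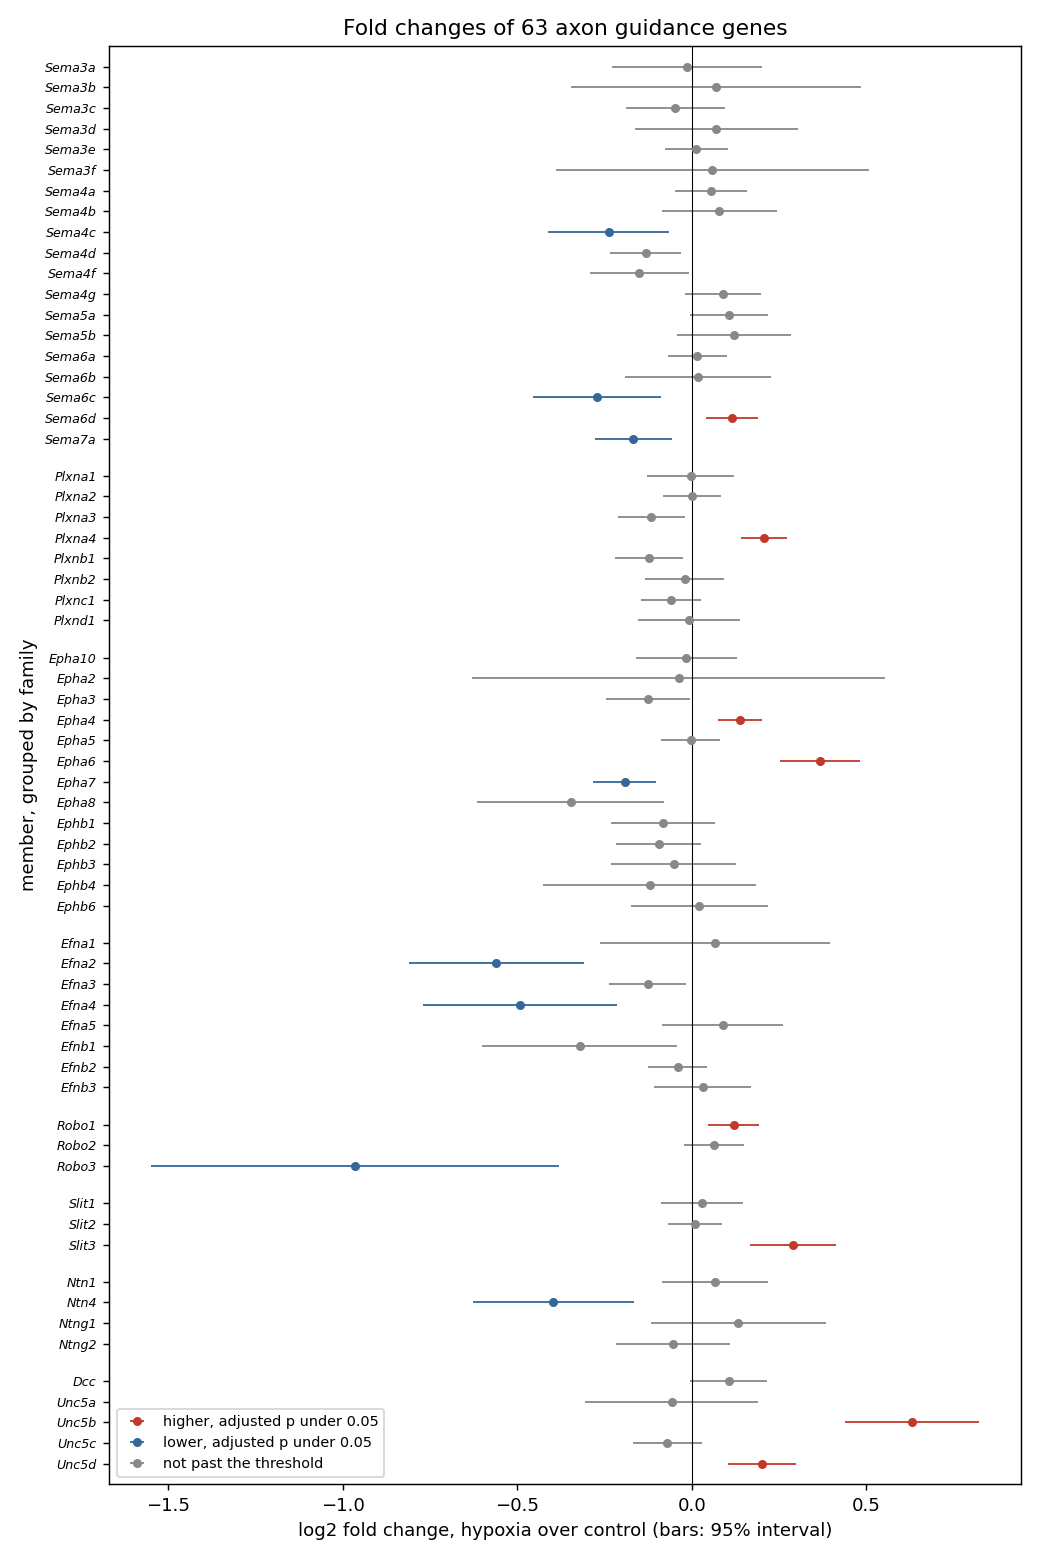
Log2 fold change (hypoxia over control) of the 63 tested members by family, with 95% intervals; red genes were higher and blue genes lower at an adjusted p under 0.05, and grey genes did not pass. Unc5b at 0.63 and Epha6 at 0.37 stand furthest to the right, and most intervals include or lie close to 0. Furthest to the left are Robo3 at -0.97, Efna2 at -0.56 and Efna4 at -0.49. Robo3 rests on few reads and entered the test mainly through the control libraries, so its place is no independent sign of a decrease.

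Unc5b showed the largest increase. It encodes a netrin receptor that repels axons and also acts in blood vessel branching. Unc5b (ENSMUSG00000020099, GRCm38 chromosome 10, 60762593 to 60831581) had 40.3, 42.3, 38.2, 39.0 and 43.2 CPM in the hypoxia libraries, against 18.6 to 30.0 CPM (median 28.0) in the control libraries. All hypoxia libraries lay above all control libraries, and control 1 was the lowest. The mean was 40.6 ± 2.15 CPM in hypoxia and 26.03 ± 4.41 CPM in control (SD, n = 5 and 6), a 1.55-fold difference with a log2 fold change of 0.63 (SE 0.09, edgeR adjusted p = 0.000116). Without control 1 the adjusted p stayed below the threshold, as it did under all 16 other settings (up to 0.000645).

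Other netrin receptors differed less or did not pass. Unc5d, whose protein also binds FLRT2, had 71.6, 76.1, 79.7, 82.1 and 72.4 CPM in hypoxia and 63.6 to 70.9 CPM (median 64.9) in control, with no overlap between the groups. Its log2 fold change was 0.20 (SE 0.05, edgeR adjusted p = 0.00478). Dcc, the attractive netrin receptor, had 113, 114, 110, 114 and 117 CPM in hypoxia and 95.5 to 121 CPM (median 105) in control. The hypoxia values of Dcc fell inside the control range (log2 fold change 0.11, edgeR adjusted p = 0.157), but Dcc passed without control 6 (adjusted p = 0.0230) and had an adjusted p of up to 0.310 over its other settings. Unc5a, the most abundant Unc5 per length, was spread over 45.5 to 83.7 CPM in control with 59.3 to 72.9 CPM in hypoxia. Its log2 fold change was -0.06 with a 95% interval from -0.30 to 0.19, so a change of either sign within that range was not excluded by these data, and its sign turned without control 5 or control 6 (0.014 and 0.0048). Unc5c stood at 116 CPM in hypoxia and 121 CPM in control (log2 fold change -0.07, edgeR adjusted p = 0.318).

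Of the netrins themselves, Ntn4 fell, and Ntn1, Ntng1 and Ntng2 did not pass. Ntn4, a laminin-binding netrin of basement membranes, had 2.69, 3.02, 2.30, 3.64 and 3.17 CPM in hypoxia and 3.62 to 4.16 CPM (median 3.96) in control. Hypoxia 4 reached into the control range and the other hypoxia libraries lay below it. Ntn4 fell by 0.40 on the log2 scale (SE 0.11, edgeR adjusted p = 0.0150). Ntn1, the founding attractant, had 6.70, 7.70, 7.70, 6.87 and 7.44 CPM in hypoxia and 6.555 to 7.502 CPM (median 6.78) in control (log2 fold change 0.07, 95% interval -0.09 to 0.22). Ntng1 and Ntng2, which encode membrane-anchored netrin-G proteins that bind NGL proteins and not Dcc, had log2 fold changes of 0.13 and -0.05 and did not pass. Ntng2 shares 14.0% of its exon bases with a transcript on the same strand, 6530402F18Rik, which had 420 to 817 counts, so its level is uncertain.

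Slit3 was the Slit that rose, while Slit1 and Slit2 did not pass. Slit3 (GRCm38 chromosome 11, 35121224 to 35708507), a secreted Robo ligand, had 147, 135, 138, 139 and 137 CPM in hypoxia and 96.1 to 127 CPM (median 114) in control. The groups did not overlap, and control 1 was again the lowest library. The log2 fold change was 0.29 (SE 0.06, edgeR adjusted p = 0.00180). Slit1 had 157 ± 6.14 CPM in hypoxia and 154 ± 14.5 CPM in control, and Slit2 205 ± 6.66 CPM in hypoxia and 204 ± 8.89 CPM in control (SD, n = 5 and 6). Their 95% intervals of the log2 fold change, -0.09 to 0.15 and -0.07 to 0.09, leave room only for small differences, and the sign of Slit1 turned without control 1 (-0.0089) and that of Slit2 without control 4 (-0.0021) or hypoxia 2 (-0.0013).

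Of the Slit receptors, Robo1 rose and Robo2 did not pass. Robo1, which mediates Slit repulsion, had 139, 153, 145, 143 and 147 CPM in hypoxia and 130 to 140 CPM (median 133) in control. Hypoxia 1 lay within the control range, and the log2 fold change was 0.12 (SE 0.03, edgeR adjusted p = 0.0196). This call was lost without control 3 or hypoxia 2, with an adjusted p of up to 0.0725. Robo2, which lies beside Robo1 on chromosome 16, did not pass (log2 fold change 0.06, edgeR adjusted p = 0.291). Robo3, a divergent Robo known for midline crossing of commissural axons, was close to the floor with 9, 6, 5, 5 and 10 counts in the hypoxia libraries and 7, 15, 16, 10, 17 and 21 counts in the control libraries. It entered the test through 5 control libraries and 1 hypoxia library, so it was let in mainly by the group where it was higher. Its log2 fold change of -0.97 (SE 0.28, edgeR adjusted p = 0.0187) rests on few reads and is no independent sign of a decrease. The authors' deposited table does not list Robo3.

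Among Eph receptors, Epha6 and Epha4 rose and Epha7 fell, all of them class A receptors. Epha6 (GRCm38 chromosome 16, 59653483 to 60605531) had 77.1, 81.2, 91.4, 83.4 and 71.2 CPM in hypoxia and 59.9 to 66.5 CPM (median 62.3) in control. Its groups did not overlap, and its log2 fold change was 0.37 (SE 0.05, edgeR adjusted p = 0.000143). Epha4, known in the hippocampus for its part in dendritic spine shape, had 483, 486, 495, 506 and 473 CPM in hypoxia and 434 to 458 CPM (median 443) in control. The increase in Epha4 was small but cleared the spread (log2 fold change 0.14, SE 0.03, edgeR adjusted p = 0.00319). Epha7, a receptor for ephrin-A ligands, had 36.4, 37.9, 39.2, 40.1 and 36.2 CPM in hypoxia and 41.7 to 45.8 CPM (median 43.0) in control. Epha7 was the member with every hypoxia library below every control library (log2 fold change -0.19, SE 0.04, edgeR adjusted p = 0.00364). Epha5, Epha3 and Epha10 did not pass, with log2 fold changes of -0.0029, -0.13 and -0.02. Epha8 was at 11.9 CPM in hypoxia and 15.1 CPM in control and just missed the threshold here (log2 fold change -0.35, edgeR adjusted p = 0.0593), while the authors' deposited table lists it at -0.28 with an adjusted p of 0.0366. Epha2 was near the floor, at 0.498 CPM in hypoxia and 0.482 CPM in control.

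None of the 5 EphB receptors passed, with log2 fold changes from -0.12 in Ephb4 to 0.02 in Ephb6. Ephb2, which clusters NMDA receptors at synapses, was the most abundant of them in CPM, at 105 ± 3.75 CPM in hypoxia and 112 ± 10.9 CPM in control (SD, n = 5 and 6).

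Of the ephrins, Efna2 and Efna4 fell, both of them membrane-anchored ligands of EphA receptors. Efna2 (GRCm38 chromosome 10, 80179482 to 80190010) had 7.27, 6.61, 6.04, 5.50 and 8.13 CPM in hypoxia and 8.09 to 11.9 CPM (median 9.85) in control. Hypoxia 5 lay just above the lowest control library, and the rest lay below all controls. The log2 fold change was -0.56 (SE 0.12, edgeR adjusted p = 0.00274). Efna4 had 1.81, 1.55, 1.89, 1.66 and 2.20 CPM in hypoxia and 2.10 to 3.15 CPM (median 2.49) in control, a log2 fold change of -0.49 (SE 0.13, edgeR adjusted p = 0.0129). With 35 to 89 counts per library, Efna4 is less precise, and 10.5% of its exon bases overlap an opposite-strand transcript with 2 to 12 counts. Efna4 lies beside Efna3 and Efna1 on chromosome 3, and these neighbours did not pass, with log2 fold changes of -0.13 (edgeR adjusted p = 0.0895) and 0.07 (0.808). Without control 1 or hypoxia 5, Efna3 and Efnb1 passed as well, so that 4 ephrins were called. Efnb3, the most abundant ephrin, had 327, 308, 306, 326 and 386 CPM in hypoxia and 273 to 353 CPM (median 326) in control, with overlapping groups and a 95% interval of the log2 fold change from -0.11 to 0.17. Its sign turned without hypoxia 5 (-0.034) or control 1 (-0.013).

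**Figure D3:**
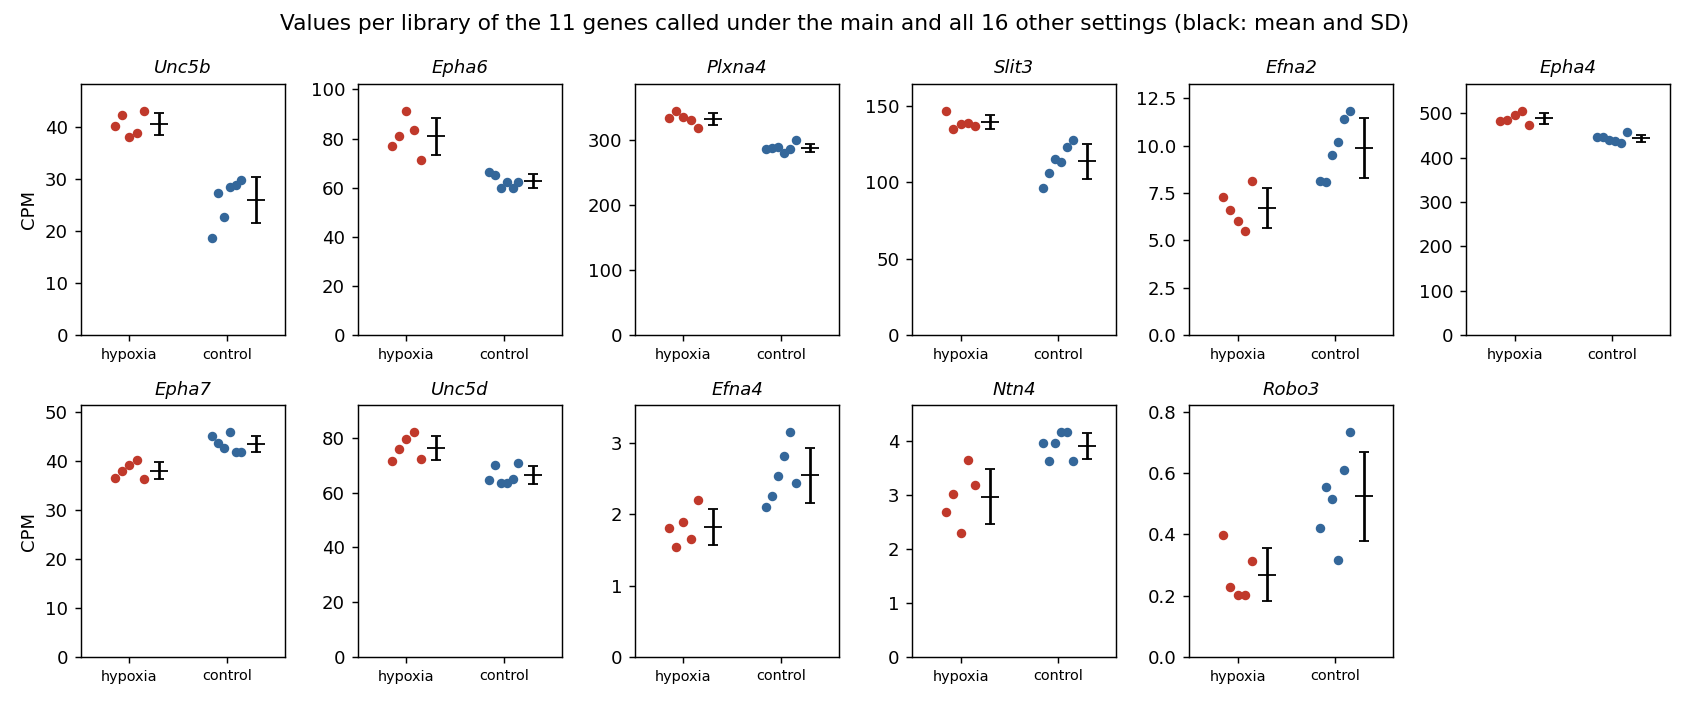
CPM of each hypoxia library (red, n = 5) and control library (blue, n = 6) for the 11 members that passed in the main test and under all 16 other settings; black marks give mean and SD, and each axis starts at 0. Unc5b, Epha6, Plxna4, Slit3, Epha4 and Unc5d were higher in every hypoxia library, and Epha7 lower. Efna2, Efna4, Ntn4 and Robo3 overlap at the edge. Robo3 entered the test mainly through the control libraries, where it was higher, so its call is no independent sign of a decrease.

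Semaphorins, 19 of them tested, gave 1 increase and 3 decreases, each under 25%. The secreted class 3 semaphorins, most of which act through neuropilins and class A plexins whereas Sema3e binds Plxnd1 directly, held no gene past the threshold: Sema3a to Sema3f had log2 fold changes from -0.05 to 0.07. Of these, Sema3e and Sema3c were the better expressed, at 7.33 and 4.04 CPM per kb in hypoxia and 7.27 and 4.19 CPM per kb in control, and Sema3a, Sema3b, Sema3d and Sema3f were below 0.5 CPM per kb in both groups. In the membrane-bound classes, Sema6d had 108, 110, 113, 112 and 108 CPM in hypoxia and 96.2 to 107 CPM (median 102) in control, with no overlap (log2 fold change 0.11, SE 0.04, edgeR adjusted p = 0.0271). Sema7a, a GPI-anchored semaphorin that binds Plxnc1 and integrins, had 74.1, 65.5, 66.7, 66.7 and 66.6 CPM in hypoxia and 68.3 to 83.1 CPM (median 76.4) in control. Hypoxia 1 lay inside the control range, and Sema7a fell by 0.17 on the log2 scale (SE 0.05, edgeR adjusted p = 0.0290). Sema6c and Sema4c had log2 fold changes of -0.27 and -0.24 (edgeR adjusted p = 0.0326 and 0.0458), with overlapping groups.

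These 4 semaphorin calls were near the threshold, and each was lost without any 1 of several libraries. Sema6d lost its call without hypoxia 2, 3 or 4 (adjusted p up to 0.0715). Sema7a lost it without control 4, 5 or 6 or hypoxia 2, 3, 4 or 5 (up to 0.0773 among these). Sema6c lost it without control 4, 5 or 6 or hypoxia 2, 3 or 4 (up to 0.0894), and Sema4c without control 2 to 6 or hypoxia 2, 3 or 4 (up to 0.127). The number of semaphorins called was 0 without hypoxia 2, hypoxia 3 or hypoxia 4, 1 without control 4, control 5 or control 6, and 7 without control 1. Calls over all genes numbered 2953, 3124, 3182, 3189, 3448, 3389 and 4034 in these settings, in that order, beside 3751 in the main test. Sema4c also overlaps an opposite-strand transcript over 7.27% of its exon bases.

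Of the plexins, Plxna4 rose. Plxna4 (GRCm38 chromosome 6, 32144268 to 32588192), a receptor subunit for class 3 and class 6 semaphorins, had 334, 346, 336, 331 and 319 CPM in hypoxia and 280 to 300 CPM (median 288) in control. The lowest hypoxia library was above the highest control library, and the log2 fold change was 0.21 (SE 0.03, edgeR adjusted p = 0.000164). Its close relatives did not pass: Plxna1 had 391 ± 17.7 CPM in hypoxia and 391.9 ± 38.9 CPM in control, and Plxna2 546 ± 23.2 CPM in hypoxia and 545 ± 25.5 CPM in control (SD, n = 5 and 6). The 95% interval of Plxna1 ran from -0.13 to 0.12 on the log2 scale. Plxna3, Plxnb1, Plxnb2, Plxnc1 and Plxnd1 lay between -0.12 and -0.01. Plxnb1 passed without control 1 or hypoxia 3, and Plxna3 without hypoxia 1.

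Beside the members, 2 lists of pathway genes were read from the same fit. Of 31 co-receptors and modulators tested, 4 were higher and 3 lower (22.6%, beside 23.0% of all genes tested, median log2 fold change -0.02). Flrt3 and Flrt2, whose proteins bind Unc5 receptors, went opposite ways: Flrt3 had 81.1 ± 6.27 CPM in hypoxia and 60.9 ± 2.67 CPM in control (log2 fold change 0.41, edgeR adjusted p = 2.2e-05), and Flrt2 had 37.0 ± 2.65 CPM in hypoxia and 50.2 ± 5.35 CPM in control (-0.43, 0.000263; SD, n = 5 and 6). The adhesion genes Dscam and L1cam and the netrin receptor Neo1 were higher by 0.18, 0.12 and 0.13 on the log2 scale, and Ryk and Lrrc4 lower (-0.18 and -0.12). The neuropilins Nrp1 and Nrp2, co-receptors of class 3 semaphorins, did not pass, with log2 fold changes of 0.09 and 0.12 (edgeR adjusted p = 0.0697 and 0.0947). Of 62 signalling and cytoskeletal effectors, 12 were higher and 7 lower (30.6%, beside the same 23.0%, median log2 fold change 0.04). The higher ones included the tyrosine kinase Abl2 (0.21), the collapsin response mediator Dpysl2 (0.15) and the exchange factor Trio (0.13). The lower ones included the actin regulators Enah (-0.14) and Vasp (-0.17) and the cofilin kinase Limk1 (-0.29). The largest decreases among the effectors that passed were in Fes, a tyrosine kinase (-0.97), and Mical1, an enzyme that oxidises actin (-0.51), both at low levels: Fes had 0.405 CPM in hypoxia and 0.803 CPM in control, and Mical1 3.89 CPM in hypoxia and 5.51 CPM in control. Each of these effectors passed the threshold in edgeR's test.

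Members that rose and members that fell differed in gene length and in level. The 8 higher members had a median length from gene start to gene end, introns included, of 575 kb, and the 8 lower members one of 15.6 kb, with 56.6 kb for the 47 that did not pass. In all, 7 of the 8 higher members spanned over 100 kb, as did 2 of the 8 lower ones and 22 of the 47 that did not pass. Over all genes tested, 421 of 1667 higher, 176 of 2084 lower and 1749 of 12568 remaining genes spanned over 100 kb, and the same medians were 35.6 kb for the higher, 19.8 kb for the lower and 20.9 kb for the remaining genes. The higher members also had a larger median level (115 CPM) than the lower ones (12.2 CPM), as did all higher genes (49.9 CPM) beside all lower genes (16.6 CPM). No test was made of these differences, and length and level were not separated. The lower members include Robo3, which passed the count filter mainly through the control libraries. Unc5b, at 69.0 kb, was the shortest of the higher members and had the largest increase.

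**Figure D4:**
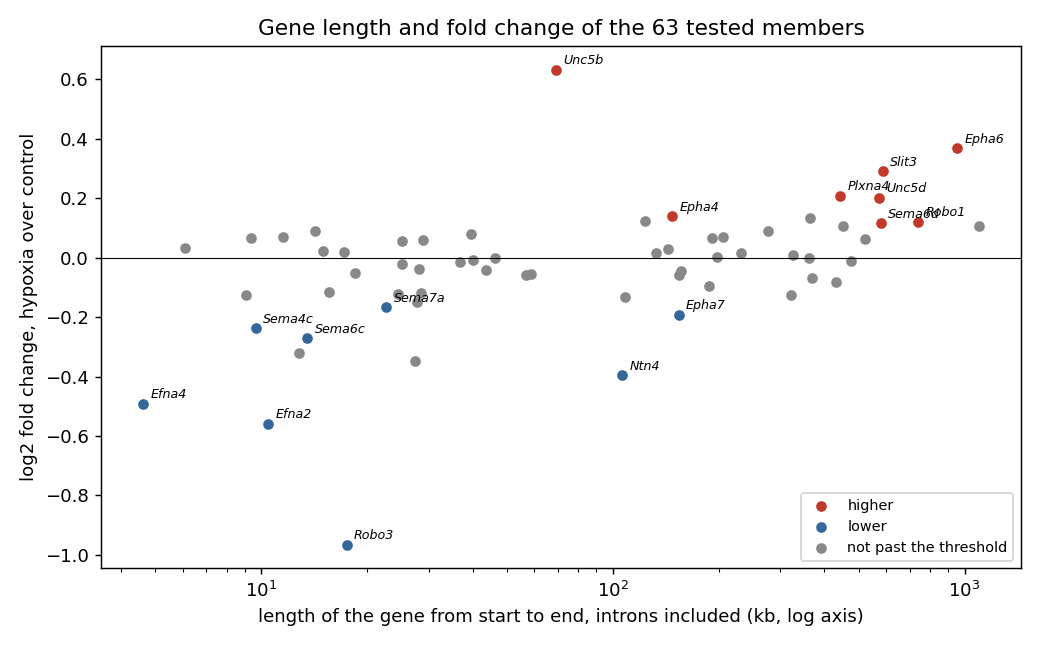
Length from gene start to gene end in kb (log axis) against log2 fold change (hypoxia over control) for the 63 tested members; red genes were higher, blue genes lower, and grey genes did not pass. Higher members sit at 69.0 to 952 kb and lower members at 4.64 to 154 kb.

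Promoters were read for the 2 higher and the 2 lower members of smallest p that have a single start in the RefSeq table, to set the changed genes beside the HIF-binding core. HIF is the transcription factor of the low-oxygen response, and its core motif was searched as ACGTG or GCGTG on both strands. ACGTG lies inside the E-box CACGTG, which other factors bind. Each sequence runs from 250 bases before to 50 after the start, from RefSeq on GRCm38.p6, with motif matches in capitals. The windows are chr10:60831532-60831831 (minus strand) for Unc5b, chr16:60605482-60605781 (minus) for Epha6, chr10:80179232-80179531 (plus) for Efna2 and chr3:89337979-89338278 (minus) for Efna4.
Unc5b: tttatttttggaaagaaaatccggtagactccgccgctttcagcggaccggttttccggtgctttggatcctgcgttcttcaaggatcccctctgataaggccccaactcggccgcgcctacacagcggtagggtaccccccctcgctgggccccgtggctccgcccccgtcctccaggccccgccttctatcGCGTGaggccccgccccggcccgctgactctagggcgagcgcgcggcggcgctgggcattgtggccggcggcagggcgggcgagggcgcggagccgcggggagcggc
Epha6: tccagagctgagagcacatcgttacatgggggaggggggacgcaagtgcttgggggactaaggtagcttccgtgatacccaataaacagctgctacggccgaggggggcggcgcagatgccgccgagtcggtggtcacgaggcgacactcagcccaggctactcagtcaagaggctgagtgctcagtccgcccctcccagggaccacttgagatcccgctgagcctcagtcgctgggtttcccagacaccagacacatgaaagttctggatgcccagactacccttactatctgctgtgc
Efna2: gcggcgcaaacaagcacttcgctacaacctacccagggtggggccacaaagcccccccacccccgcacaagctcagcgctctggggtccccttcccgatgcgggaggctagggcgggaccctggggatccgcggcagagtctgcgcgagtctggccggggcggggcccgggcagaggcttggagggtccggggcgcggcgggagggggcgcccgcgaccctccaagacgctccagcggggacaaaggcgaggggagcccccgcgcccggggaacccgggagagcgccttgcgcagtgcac
Efna4: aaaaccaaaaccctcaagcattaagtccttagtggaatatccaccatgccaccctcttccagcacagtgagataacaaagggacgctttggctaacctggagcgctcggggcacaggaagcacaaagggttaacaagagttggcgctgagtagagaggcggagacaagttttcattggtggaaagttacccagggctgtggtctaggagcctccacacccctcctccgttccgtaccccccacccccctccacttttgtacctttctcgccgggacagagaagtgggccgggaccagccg
Unc5b holds 1 match, GCGTG, starting 57 bases before the start site, and the other sequences hold none. Of the 71 members, 58 had promoters in the table, 74 in all. The motif was in 34 of these 74 (45.9%), which include promoters of untested members, and in 43.8% of all 32851 promoters listed. It was in 4 of 7 promoters of higher members, 5 of 11 of lower ones and 25 of 51 of those not called. Of the 15004 promoters of genes tested, 60.2% held it. No match says only that these letters are not in this window, and a match is not a site.

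A microRNA of the low-oxygen response, miR-210, is known in human endothelial cells to target ephrin-A3, so its seed match was looked for in the annotated 3′ ends of the members. The mature mouse sequence from RefSeq is shown with its seed (bases 2 to 8) in capitals, followed by the stretch at each match (ACGCACA, in capitals) in Efna3 and in the 2 called members that hold one, read from GENCODE M21 transcripts on GRCm38. The matches are at chr3:89314666-89314672 (minus strand) in Efna3, chr4:28964561-28964567 (plus) in Epha7 and chr10:60763059-60763065 (minus) in Unc5b.
mmu-miR-210-3p: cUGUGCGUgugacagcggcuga
Efna3: gacaggacctatgcaACGCACA
Epha7: aaggaaagcaaaactACGCACA
Unc5b: cacccctcccagaacACGCACA
The match was present in 7 of 63 tested members (11.1%), namely these 3 and Ephb1, Ntng1, Plxna1 and Sema4d, and in 580 of 14004 tested genes with an annotated 3′ untranslated region (4.14%). Of the 7, Unc5b was higher, Epha7 was lower and 5 did not pass, Efna3 among them at 60.7 ± 3.90 CPM in hypoxia and 66.2 ± 4.27 CPM in control (SD, n = 5 and 6). A longer 3′ end has more room for a match, and the 2 shares above were not matched for length. Median exon length of the whole gene was 7002 bases in tested members. It was 5.54 kb in all higher genes, 4.63 kb in all lower and 3.95 kb in remaining genes. These are not lengths of the 3′ ends, which were not compared. The difference between the shares was not tested. The microRNA itself was not measured here.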

How the data were processed

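RNA-seq counts of 11 libraries were analysed. The authors deposited whole-number read counts per Ensembl gene ID, with no scaling. Counting with featureCounts from Subread 1.5.1, mapping with STAR 2.5.2b, a check with FastQC 0.11.5 and the build mm10 (GRCm38) are named, per the submitters' processing notes. Which annotation and strand option they used, and how multimapping reads were handled, is not given in the sources used here. The library kit named in the labels' protocols does not mark strand, so reads where antisense genes overlap cannot be assigned by strand. How such reads were counted is not given either. The deposited comparison tables hold the authors' log2 fold changes and adjusted p-values; their per-library columns, a normalized signal equal to the deposited counts over 1 factor per library, were not used.

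Symbols came from a supplied table of gene names and exon lengths and positions from GENCODE M21 (GRCm38), with 48349 of 48709 IDs matched in each. Genes with 10 or more counts in at least 5 libraries (16319, with 99.9% of counts) were tested on the counts with edgeR 4.0.16 (R 4.3.3; TMM, glmQLFit with robust FALSE, glmQLFTest, 2-sided, no covariate) with calls made below 0.05 after Benjamini-Hochberg adjustment. SE is the log2 fold change over the root of F; levels are CPM with TMM-scaled library sizes, and intervals are 95%. The fit was tested on simulated data. Named members were all called ones, the most abundant of each family per exon length, and Dcc, Robo1, Slit1, Slit2, Ntn1 and Unc5a; others were named after their values were seen. Members and lists were chosen with earlier results of these data known. Alternatives were DESeq2 1.42.0 (Wald test or its size factors), 2 other filters, a replicate block and leaving out each library. Replicate numbers are not said to pair libraries.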

Additional observations from a re-analysis of the deposited data

Results flagged for a closer look

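Among 48 groups of libraries of the named members, 2 held a library far from the others, where chance alone would give about 1 in 20. Sema7a stood at 74.09 CPM in hypoxia 1, with the other hypoxia libraries at 65.47 to 66.74 CPM. Efnb3 stood at 385.6 CPM in hypoxia 5, with the other hypoxia libraries at 306.1 to 327.2 CPM.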

How the results depend on the processing

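Unc5b, Epha6, Plxna4, Slit3, Efna2, Epha4, Epha7, Unc5d, Efna4 and Ntn4 kept their direction and call under all 16 other settings. Robo3 did too, but it passed the filter mainly through the control libraries and rests on few reads, so this is no sign of stability. Members called numbered 15 with DESeq2 size factors, 16 with filterByExpr, 15 without a count filter, 17 with DESeq2's test (Epha8 added) and 11 to 23 with 1 library left out. Leaving out 1 library gave 6 to 9 higher and 5 to 14 lower members, 0 to 7 semaphorins, 1 to 2 plexins, 2 to 4 ephrins, 1 to 2 Robo receptors and 4 to 13 ligands. Over all genes, 1307 to 1837 were then higher and 1637 to 2197 lower, beside 1667 and 2084 in the main test. Without the count filter 2 semaphorins were called. With the replicate block, 13 members were called, 5 of them lower, 0 semaphorins and 4 ligands: Sema4c, Sema6c, Sema6d and Sema7a lost their calls and Dcc gained one (adjusted p = 0.0358, and 0.0230 to 0.310 over its settings). Whether the replicate numbers pair the libraries cannot be told from these values. Same-numbered deviations correlated at -0.10 to 0.31, and 2 of 5 hypoxia libraries correlated best with their own number. The sign of members far from the threshold turned in Plxna1 (0.0085 with DESeq2 size factors, 0.0061 with no filter, 0.028 with the block, 0.0086 with DESeq2, and -0.039 to 0.042 with 1 library left out), Unc5a (0.028 with the block) and, with 1 library left out, Unc5a (-0.14 to 0.014), Efnb3 (-0.034 to 0.060), Slit1 (-0.0089 to 0.068) and Slit2 (-0.0021 to 0.030). The causes were not tested. Depth limits Robo3 and Epha2, with at most 21 counts in any library, and members at the floor cannot show a change.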

Other observations

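Control 1, the shallowest library, was the lowest control library for 36 of the 63 tested members and the highest for 11, and control 6 was the highest for 27 and the lowest for 6. In Unc5a these libraries were at 45.5 and 83.7 CPM. Among hypoxia libraries, no one library was lowest for more than 19 members.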
